A study of Mus musculus with 4 samples.

Results

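The comparison described here sets Flk-1-positive mesoderm that lacked ER71 against wild-type Flk-1-positive mesoderm. It rests on 2 arrays of the 4 in the series, chosen by their titles: the array of Er71-/- embryonic stem (ES) cells and the array of wild-type ES cells. Mouse ES cells had been differentiated for 3 days, cells with Flk-1 on their surface were sorted, and amplified RNA was hybridised to Affymetrix arrays, 1 array for each group. The remaining arrays came from the inducible ER71 line (iER71), genotype labelled wild-type, with doxycycline (1 mg/ml, added at day 2 and kept until day 3) or without it. Their titles disagree with their treatment labels: the untreated array is titled ER71 overexpressed and the treated array is titled control. Both are named below by treatment and serve only to show where the compared arrays lie. All ES cells were maintained on mouse fibroblast feeders. How many Er71-/- clones were used, which part of the gene was removed, and whether the wild-type line is the parent of the deficient line is not stated in the labels.

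ER71 is the product of Etv2, a member of the ETS family of transcription factors, which bind DNA around a GGAA core. It is expressed briefly in early mesoderm, and mouse embryos without it form neither blood nor vessels. Flk-1, encoded by Kdr, is a receptor for VEGF and marks the mesoderm that can give rise to endothelium, blood, smooth muscle and heart. ETS factors together with SCL (Tal1), Lmo2 and GATA factors form the network that switches on endothelial and blood genes.

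Gene values are the deposited linear intensities after log2, and a difference is always deficient minus wild type. Of 14860 genes on the array, 8843 were taken as detected, meaning that the brightest of the 4 arrays reached the median of all values (log2 6.16, called the detection level below). Just inside this limit was Asb18, with 6.16 on its brightest array, and just outside was Frmd5, also at 6.16 after rounding. On the deficient array 140 detected genes (1.58%) were at least 2-fold dimmer than in wild type and 38 (0.43%) at least 2-fold brighter, which makes 2.01% in either direction. With 1 array a side no difference has an error or a test, so size alone sorted the genes. In sorted bulk cells, fewer cells of a type and less RNA per cell cannot be told apart. The limit of 2-fold (1 on the log2 scale) lay between Ptger1 at -1.0 and Art4 at -0.99 on the lower side, and between Socs2 at 1.0 and Cfc1 at 0.99 on the higher side. Ptger1 was under 2-fold after median centring, quantile normalization or cyclic loess and with an offset of 50 on the linear scale.

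The differences were lopsided in number and in size. Among the dimmer genes, 24 were at least 4-fold dimmer and 11 of these at least 8-fold (3 on the log2 scale), while 2 of the brighter genes passed 4-fold. The median was -1.34 for the 140 dimmer genes and 1.19 for the 38 brighter genes. Over all detected genes the median was -0.01, with 4679 genes dimmer in deficient cells, 2710 brighter and 1454 (16.4%) exactly equal. In deficient cells 74 of the 140 dimmer genes lay below the detection level, and their folds are loose in size because the background is unknown. With an offset of 50 added to the linear intensities, which shrinks differences of dim genes, 62 genes stayed at least 2-fold dimmer and 13 at least 2-fold brighter.

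**Figure D1:**
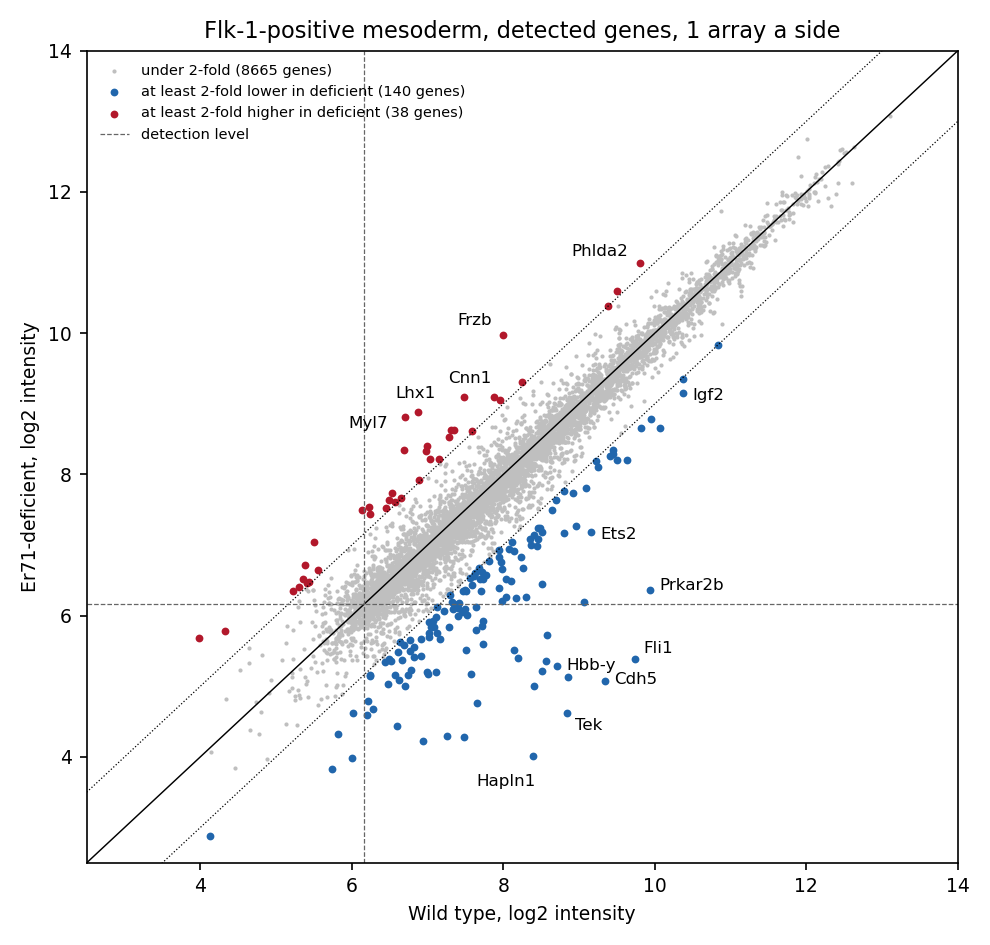
Log2 intensity of each of the 8843 detected genes on the wild-type array (horizontal) and the Er71-deficient array (vertical). Blue points are the 140 genes at least 2-fold lower in deficient cells, red points the 38 at least 2-fold higher; dotted lines mark 2-fold and dashed lines the detection level. The blue cloud reaches farther from the diagonal, to Hapln1 at 4.01 against 8.39, than the red cloud, which ends at Myl7 with 8.81 against 6.70.

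Etv2 itself was at log2 8.89 in deficient cells and 9.39 in wild type, 1.42-fold lower, and thus far above the detection level in cells labelled Er71-/-. Where its probes lie relative to the removed part is unknown, so the level is no check of the genotype label. Genes measured next to Etv2 in the reference gene order showed no block of differences. Among the 10 protein-coding genes on either side, those measured differed by -0.21 (Tmem147) to 0.40 (Dmkn). Rbm42 and Haus5, next on one side, and Psenen, U2af1l4 and Krtdap had no probe set with a single symbol. Upk1a, 2200002J24Rik, Atp4a, Gapdhs and Ffar2 were not detected. The adjacent gene Cox6b1, a subunit of cytochrome c oxidase, was at 12.09 in deficient cells and 12.24 in wild type. Kdr, the gene of the sorted receptor, was at 9.67 and 9.89, 1.17-fold apart.

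Among 16 detected ETS factors of 26 listed, 5 were dimmer by 2-fold or more in deficient cells and none brighter. The median was -0.13, against -0.01 over all detected genes. Over all 8843 detected genes, to set beside each list, 1.58% were at least 2-fold lower and 0.43% at least 2-fold higher. Of those 8843, 4679 were dimmer in deficient cells and 2710 brighter. Fli1, a regulator of both lineages, was at 5.39 in deficient cells and 9.73 in wild type, 20.3-fold lower. Its close relative Erg was at 5.52 and 8.15, 6.18-fold lower, and both lay under the detection level in deficient cells. Elk3, an ETS factor that can repress transcription, was at 6.26 against 8.30 (4.12-fold). Ets2 and Ets1, which respond to Ras signalling, stood at 7.19 against 9.16 and at 7.24 against 8.48. Etv6, needed for adult blood stem cells, was just short of 2-fold, with 7.53 against 8.46. Others lay at or near equality, with Gabpa at 9.97 and 9.98, Elf1 at 7.57 and 7.56, and Elk1 at 7.65 on both arrays. Etv5, a target of FGF signalling, was the only detected ETS gene brighter in deficient cells by more than 0.5, at 9.18 against 8.39.

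Other transcription factors of blood and endothelium differed by less than the largest ETS members, and nearly all in the same direction. Of 29 detected genes (32 listed), 25 were dimmer in deficient cells, 3 brighter and 1 equal; 5 passed 2-fold, all lower, and the median was -0.36. Hhex, a homeobox gene of early endothelium and blood, was at 5.52 against 7.51 in wild type (3.98-fold). Myb, a regulator of blood progenitors, was at 5.17 against 7.01 (3.56-fold), and Mecom, which maintains blood stem cells, at 5.23 against 6.78 (2.92-fold). Sox7, an endothelial SoxF factor, was at 6.10 against 7.40, and Lmo2, the bridging protein of the SCL complex, at 7.24 against 8.46. Their relatives differed by less than 2-fold: Sox18 was at 6.56 against 7.22 and Sox17 at 5.89 against 6.42. Tal1, which encodes the DNA-binding partner of Lmo2, was at 7.07 against 7.30. Gata2 was at 6.43 against 6.93 and Runx1, required for blood to emerge from endothelium, at 7.42 against 7.92. Thus Lmo2 was past 2-fold and Tal1, Gata2 and Runx1 were not. With the offset of 50, Sox7, Lmo2 and Mecom were under 2-fold.

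Receptors of the endothelial surface ranged from near equality to a difference, that of Tek, among the largest on the array. In this list 18 of 20 genes were detected, 17 were dimmer in deficient cells, 4 passed 2-fold and the median was -0.32. Tek, the angiopoietin receptor, was at 4.62 against 8.84, 18.6-fold lower and far below the detection level. Tie1, the related receptor without a known high-affinity ligand, was at 5.92 against 6.89, just under 2-fold. Kit, the receptor for stem cell factor, was at 5.79 against 7.65 (3.61-fold). The VEGF receptor gene Flt1 was at 6.92 against 8.14, whereas Kdr, the sorting marker, and the co-receptor Nrp1 (9.11 against 9.28) differed little. Ptprb, an endothelial phosphatase that acts on Tek, was at 5.65 against 6.77. Plxna2, a semaphorin receptor, was the 1 member brighter in deficient cells, at 7.26 against 6.63. Flt1 and Ptprb were under 2-fold with the offset of 50.

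Of 25 detected junction and surface genes (36 listed), 24 were dimmer in deficient cells, the other was equal, and 8 passed 2-fold. The median was -0.46. Over all 8843 detected genes, 4679 were dimmer in deficient cells and 1.58% were at least 2-fold lower. Cdh5, encoding the cadherin of endothelial junctions, stood at 5.08 against 9.34 (19.2-fold). Pecam1, an adhesion molecule of endothelium and platelets, was at 5.36 against 8.56 (9.21-fold), and the tetraspanin gene Tspan18 at 4.30 against 7.26 (7.79-fold). Smaller differences were found for Egfl7, a secreted endothelial factor (6.67 against 8.26), for the progenitor marker Cd34 (5.15 against 6.74) and for the adhesion receptor gene Adgrl4 (5.09 against 6.62). Myct1 and Cd93 completed the 8, but both lay below the detection level on both arrays, Myct1 at 4.32 and 5.82 and Cd93 at 4.62 and 6.02. Several textbook endothelial genes were not yet bright in wild type: Emcn was at 4.78 there, Cldn5 at 5.80 and Esam at 6.12, each below the detection level. The differences were -0.46 for Emcn, -0.61 for Cldn5 and -0.22 for Esam. In wild type 8 of the 25 genes lay below the detection level, Myct1 and Cd93 among them. These count as detected only through an iER71 array. With doxycycline Emcn was at 7.71 and Myct1 at 8.27. With the offset of 50, Cd34, Adgrl4, Myct1 and Cd93 were under 2-fold.

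Signalling through G-protein-coupled receptors showed large differences in both components of the adrenomedullin receptor. Calcrl, the receptor itself, was at 5.22 in deficient cells and 8.51 in wild type (9.79-fold), and Ramp2, its accessory protein, at 5.0 and 8.40 (10.5-fold). The ligand gene Adm was not detected, with 3.73 and 4.77. Prkar2b, a regulatory subunit of the cyclic-AMP-dependent kinase, was at 6.36 against 9.93, 11.9-fold lower. Also past 2-fold were the G-protein gamma subunit gene Gng11 (5.67 against 7.16), the endothelin receptor gene Ednrb (4.60 against 6.20), the sphingosine-1-phosphate receptor gene S1pr1 (6.35 against 7.47) and the thrombin receptor gene F2r (8.27 against 9.41). Of 22 detected members (32 listed) 7 passed 2-fold, each of them dimmer in deficient cells, and the median was -0.26. Brighter in deficient cells, but short of 2-fold, were the lysophosphatidic acid receptor gene Lpar4 (10.00 against 9.21) and the chemokine receptor gene Cxcr4 (8.75 against 8.18). Aplnr, the apelin receptor gene of early mesoderm, was similar at 9.12 and 9.33. Gng11, Ednrb and S1pr1 were under 2-fold with the offset of 50.

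Among the 40 largest differences, Rhoj, a Cdc42-like GTPase of endothelium, was at 5.73 against 8.58 (7.19-fold). Vav3, an exchange factor that activates small GTPases, was at 5.60 against 7.73 (4.38-fold). Both genes lay below the detection level in deficient cells alone among the 4 arrays.

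**Figure D2:**
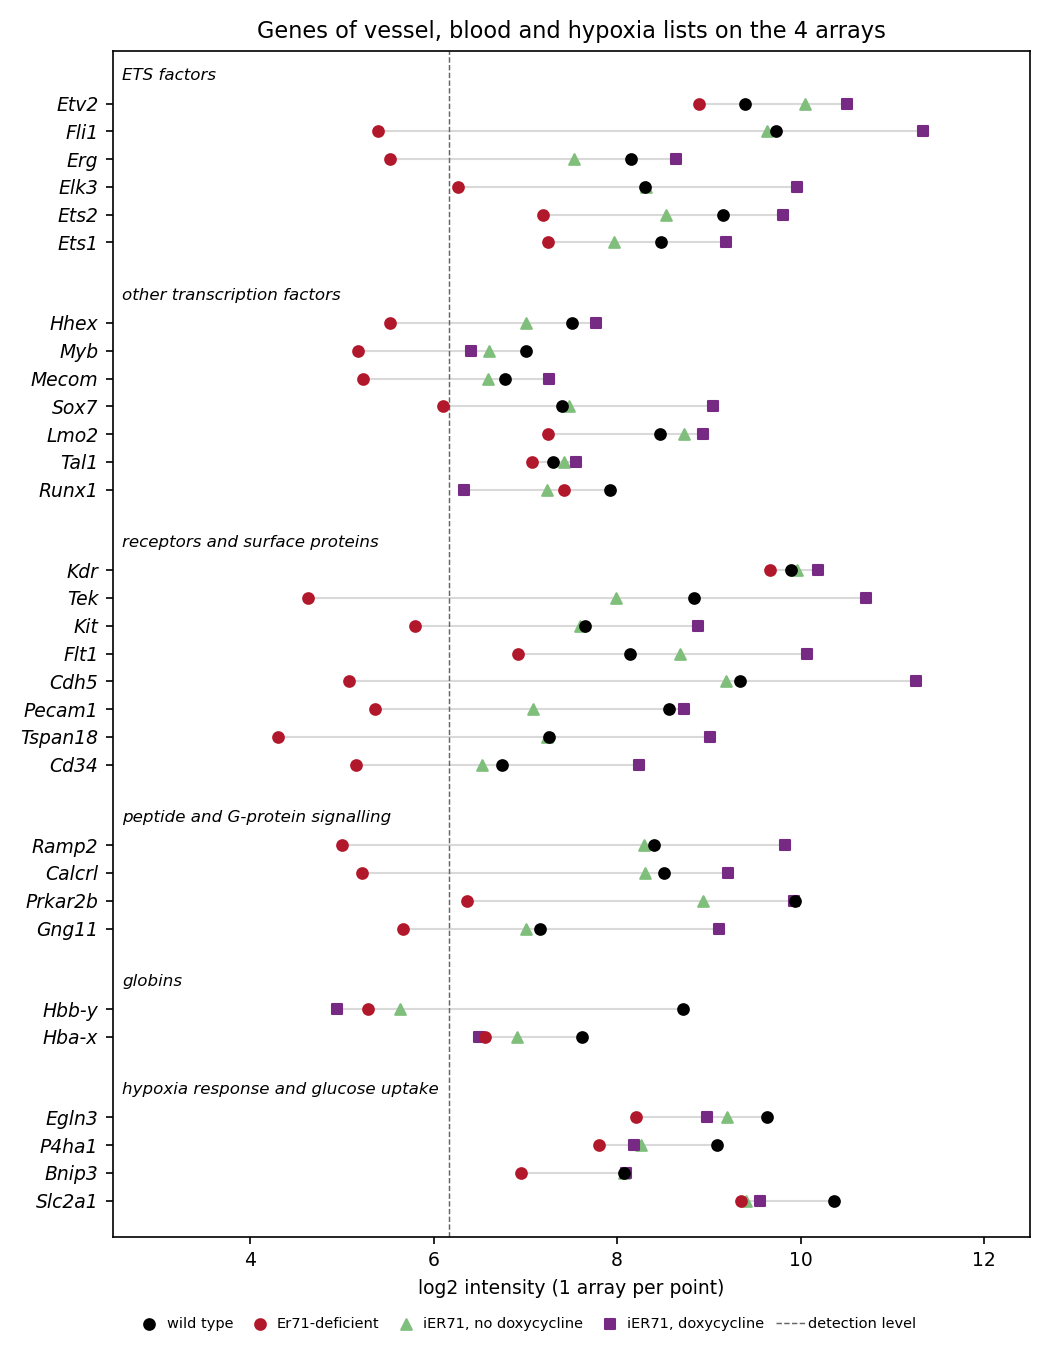
Log2 intensity of 31 genes on the 4 arrays, grouped by role, with 1 point for each array and the detection level dashed. Black circles are wild type, red circles Er71-deficient, green triangles iER71 without doxycycline and purple squares iER71 with doxycycline. The red circle is leftmost for the ETS, receptor and peptide-signalling genes shown, whereas for Hbb-y and Slc2a1 the wild-type circle stands apart from the other arrays.

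Because ETS factors bind around GGAA, the sequence before the start of each gene was read for 3 longer forms of that core: CCGGAAG, then CAGGAAG, and lastly ACAGGAA, which is part of the paired FOX:ETS element of endothelial enhancers. Both strands were searched in the 250 bases before the most upstream RefSeq start (build GRCm38.p6), and CAGGAAG and ACAGGAA overlap by 6 letters when they meet. Of the 24 genes at least 4-fold lower, 17 had a promoter in the reference table and 6 of those held a match: Calcrl, Itm2a, Rhoj, Gchfr, Elk3 and Klhl4. Hapln1, Tek, Prkar2b and Erg were among the genes read without a match. Fli1, Cdh5, Ramp2 and Pecam1 were among those with no promoter to read. The promoters of Calcrl, Rhoj and Elk3 are shown as examples from a receptor, a GTPase and an ETS factor of the paragraphs above, each 5′ to 3′ on the strand of its gene, with the matches in capitals. Calcrl lies on chr2:84425267-84425516 (minus strand), Rhoj on chr12:75308063-75308312 (plus strand) and Elk3 on chr10:93311160-93311409 (minus strand).
Calcrl: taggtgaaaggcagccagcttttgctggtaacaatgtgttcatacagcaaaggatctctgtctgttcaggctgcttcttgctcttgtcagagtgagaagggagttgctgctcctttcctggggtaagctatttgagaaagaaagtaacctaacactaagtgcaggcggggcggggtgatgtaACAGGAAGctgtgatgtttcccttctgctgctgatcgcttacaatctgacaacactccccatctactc
Rhoj: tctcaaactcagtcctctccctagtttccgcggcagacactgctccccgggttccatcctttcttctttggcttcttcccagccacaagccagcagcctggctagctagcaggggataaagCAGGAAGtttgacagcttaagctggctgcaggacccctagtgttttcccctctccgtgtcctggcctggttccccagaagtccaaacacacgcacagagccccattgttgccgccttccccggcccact
Elk3: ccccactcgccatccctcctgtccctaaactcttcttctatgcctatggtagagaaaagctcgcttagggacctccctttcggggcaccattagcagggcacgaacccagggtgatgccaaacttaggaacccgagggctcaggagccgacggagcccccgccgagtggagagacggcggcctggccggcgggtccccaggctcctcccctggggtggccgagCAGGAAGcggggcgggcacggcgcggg

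In Calcrl the overlapping matches covered the bases from 68 to 61 before the start. The CAGGAAG of Rhoj ended 123 bases and that of Elk3 21 bases before the start. Such words are common. CAGGAAG was found in 15.2% of 105 promoters of lower genes, in 9.07% of 7221 promoters of detected genes and in 10.5% of all 27025 promoters of the table. ACAGGAA was in 10.5% of the lower genes' promoters, against 5.46% for detected genes and 7.03% for the whole table. CCGGAAG went the other way, with 2.86% of the lower genes' promoters, or 3 in number, against 14.1% of those of detected genes. Its share was 7.07% for the whole table and 6.9% for the promoters of higher genes. Counting a promoter with any of these 3 words, the shares were 21.9% for lower genes, 20.7% for the 29 promoters of higher genes and 24.3% for detected genes. The 4-letter GGAA alone was in 86.7% and 92.7% of promoters of lower and of detected genes. These are counts of letters in a short window and show no binding.

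Of 30 leukocyte and platelet genes listed, 12 were detected, 10 of those were dimmer in deficient cells, 4 passed 2-fold, and the median was -0.55. Among the 10 were Gimap4, Coro1a and Pf4, which lay below the detection level in both deficient and wild-type cells. They count as detected only through the doxycycline array, at 7.98, 6.54 and 6.42. Arhgdib, an inhibitor of nucleotide exchange on small GTPases in blood cells, was at 7.28 against 8.95 (3.20-fold). Lcp1, which bundles actin in leukocytes, was at 5.20 against 7.12 (3.76-fold), and Laptm5, a lysosomal protein of blood cells, at 5.67 against 6.91. Gimap4, a GTPase gene of lymphocytes, was at 3.83 against 5.74, below the detection level on both arrays. The pan-leukocyte gene Ptprc, the macrophage receptor gene Csf1r and Vav1 were not detected on any array. Itga2b, the platelet integrin that also marks the first blood progenitors, was at 6.29 against 6.93. Laptm5 and Gimap4 were under 2-fold with the offset of 50.

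All 14 detected erythroid and haem genes of 26 listed were dimmer in deficient cells, with a median of only -0.16, and the globins alone passed 2-fold. Hbb-y, the embryonic beta-like globin, was at 5.29 in deficient cells and 8.71 in wild type. Hba-x, the embryonic alpha-like globin, was at 6.56 and 7.61, and was under 2-fold with the offset of 50. The iER71 arrays were close to the deficient array for both: Hbb-y was at 5.63 without and 4.94 with doxycycline, and Hba-x at 6.90 and 6.49. Wild type was thus the globin-bright array of the 4. The master regulator Gata1 was at 6.05 against 6.52, and Klf1, which switches on globin genes, was not detected.

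Further genes among the 40 largest differences belong to no list. Car8, a catalytically inactive relative of carbonic anhydrase, was at 5.13 against 8.85 (13.2-fold). The tetraspanin gene Tspan8 was at 4.76 against 7.66 (7.44-fold) and Itm2a, a membrane protein gene, at 6.20 against 9.07 (7.30-fold). Gngt2, a gamma subunit of transducin, was at 5.40 against 8.19 (6.94-fold). Adaptor and signalling genes of immune cells were among them: Samsn1 was at 4.22 against 6.94, Ubash3b at 6.25 against 8.17 and Gab2 at 5.92 against 7.73. Tfec, of the MITF family of transcription factors, was at 4.44 against 6.59. The small-molecule genes were Gchfr, the feedback regulator of tetrahydrobiopterin synthesis (6.44 against 8.51), Slc7a8, an amino acid transporter (5.20 against 6.99), and Npl, which breaks down sialic acid (6.26 against 8.04). The sialyltransferase gene St8sia1, which makes the ganglioside GD3, was at 4.28 against 7.48 (9.20-fold), although its second probe set differed by only -0.38. Klhl4 was at 3.99 against 6.0, below the detection level on both, and counts as detected through the doxycycline array at 8.0. The remainder were BC028528 (6.49 against 8.11), Efcab7 (6.21 against 7.99), Plxnc1, a semaphorin receptor (5.0 against 6.70), and Lrrc8c, a subunit of volume-regulated anion channels (7.18 against 8.81). Of these, Klhl4 and Plxnc1 were under 2-fold with the offset of 50.

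Matrix genes were split between a single very large difference and small ones. Hapln1, which links hyaluronan to proteoglycans, had the largest difference of all detected genes, 4.01 against 8.39 (20.9-fold). Nid1, a basement membrane linker, was at 6.61 against 7.72 and was under 2-fold with the offset of 50. No other of 27 detected matrix genes (37 listed) passed 2-fold, and the median was -0.11. Short of it were the microfibril gene Fbn2 (7.23 against 8.20), the proteoglycan gene Vcan (8.69 against 9.61), the laminin gene Lama4 (7.54 against 8.35) and the collagen gene Col4a1 (6.93 against 7.58). Fn1 and Sparc, the brightest matrix genes, differed by 0.06 and -0.01. Among 9 detected integrin genes of 17 listed none passed 2-fold. Itga8 came nearest, brighter in deficient cells at 6.93 against 5.95.

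Growth factor ligands included both insulin-like growth factors. Igf1 was at 5.86 against 7.73 (3.65-fold), and the imprinted gene Igf2 at 9.15 against 10.37 (2.33-fold). These were the 2 of 16 detected ligand genes (24 listed) past 2-fold, and the list's median was -0.22. Vegfa, the ligand of Flk-1, was at 7.96 against 8.64, Vegfc at 7.65 against 8.30, and Fgf3 at 6.06 against 7.01, each lower but short of 2-fold. Fgf5, a marker of the epiblast, was brighter in deficient cells at 7.28 against 6.51. In the list of guidance genes 28 of 39 were detected with a median of 0.00. The secreted cue gene Sema3a (6.10 against 7.50) and the netrin receptor gene Unc5c (7.74 against 8.92) were at least 2-fold lower, and Sema3a was under 2-fold with the offset of 50. The ephrin receptor gene Epha4 (8.13 against 7.23) and the Slit receptor gene Robo1 (9.51 against 8.82) lay the other way, short of 2-fold.

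Of 26 detected hypoxia and glycolysis genes (36 listed), 22 were dimmer in deficient cells, 3 brighter and 1 equal, 4 passed 2-fold and the median was -0.53. Egln3, an oxygen-sensing hydroxylase that HIF induces, was at 8.21 against 9.63 (2.69-fold). P4ha1, a collagen prolyl hydroxylase subunit, was at 7.8 against 9.09 (2.44-fold), the mitophagy gene Bnip3 at 6.95 against 8.08, and the glucose transporter gene Slc2a1 at 9.35 against 10.37. Short of 2-fold were Slc2a3 at 8.89 against 9.51, Pfkp at 7.71 against 8.34, Tpi1 at 10.60 against 11.14, Hk2 at 8.19 against 8.62 and Aldoa at 11.92 against 12.29. Pdk3 (8.84 against 8.71) and Slc16a3 (7.09 against 7.02) were slightly brighter in deficient cells. Gapdh, Pgk1, Pgam1, Eno1 and Ldha had no probe set with a single symbol. The untreated iER71 array gave 8.95 for Slc2a3 and 7.93 for Pfkp, nearer to the deficient array than to wild type. For Slc2a1 (9.40) and P4ha1 (8.26) it was also nearer to the deficient array. For Tpi1, Egln3 (9.20) and Bnip3 (8.08) it was nearer to wild type. Hif1a, encoding the oxygen-regulated factor itself, was at about the same level, with a difference of -0.11. Slc2a1 was under 2-fold after cyclic loess or quantile normalization, and Bnip3 and Slc2a1 were with the offset of 50.

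**Figure D3:**
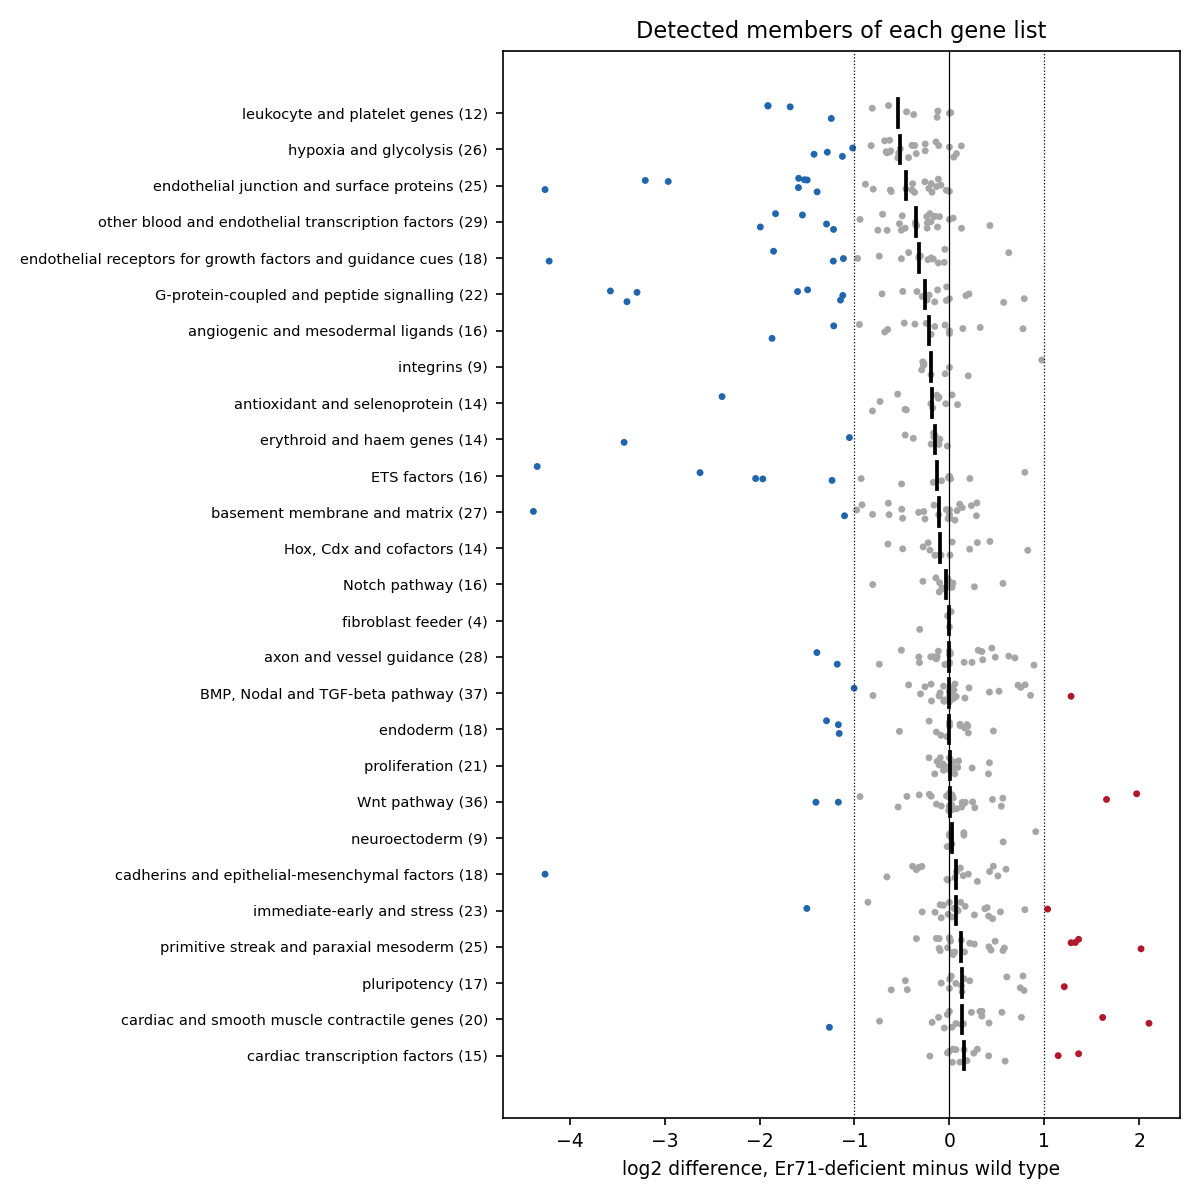
Log2 difference (deficient minus wild type) of each detected member of 27 gene lists, with the number detected in parentheses. Thick bars are medians, and blue and red points are past 2-fold. Lists are ordered by median, from -0.55 for leukocyte and platelet genes to 0.15 for cardiac transcription factors. Members detected only through an iER71 array are included.

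The iER71 arrays enter no difference, although they helped to decide which genes count as detected, and they show for each gene which array of the pair stood apart. A gene was placed by whether each iER71 array lay on the wild-type or the deficient side of the midpoint of the pair. Of the 140 lower genes, both iER71 arrays were on the wild-type side for 98 (70.0%) and both on the deficient side for 23 (16.4%). Among all 4679 detected genes brighter in wild type, most of them by little, the shares were 42.3% and 37.8%. The deficient array was the dimmest of the 4 for 131 of the 140 genes (93.6%), and wild type the brightest for 46 (32.9%). Among the 4679 genes these shares were 55.8% and 49%. For 53 of the 140 (37.9%), deficient cells alone lay below the detection level, against 4.7% of the 4679. The choice of genes with a low deficient value favours such counts, so they are a description only. Cell line and array cannot be told apart from genotype in these values.

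Deficient cells were the dimmest by the widest margin for Fli1, 4.25 below the next array on the log2 scale, and for Cdh5 with 4.11. Tek (3.37), Ramp2 (3.29), St8sia1 (3.20), Calcrl (3.09), Hapln1 (3.02) and Car8 (2.95) followed. The opposite case, wild type at least 2-fold above each other array, held for 8 of the 140 genes. Hbb-y led by 3.08, followed by Tdo2 of tryptophan breakdown (1.60), the smooth muscle actin gene Acta2 (1.26), Unc5c (1.18), the placental gene Plac1 (1.15), Armh4 (1.10), Ubash3b (1.01) and Pclaf, a partner of the replication clamp (1.00). Also on the deficient side with both iER71 arrays were Slc2a1, P4ha1, Hba-x and Ier3. Tdo2, Plac1, Armh4 and Pclaf were under 2-fold with the offset of 50, and Pclaf also after median centring, quantile normalization or cyclic loess. For these genes the comparison shows wild type standing apart more than the deficient cells.

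**Figure D4:**
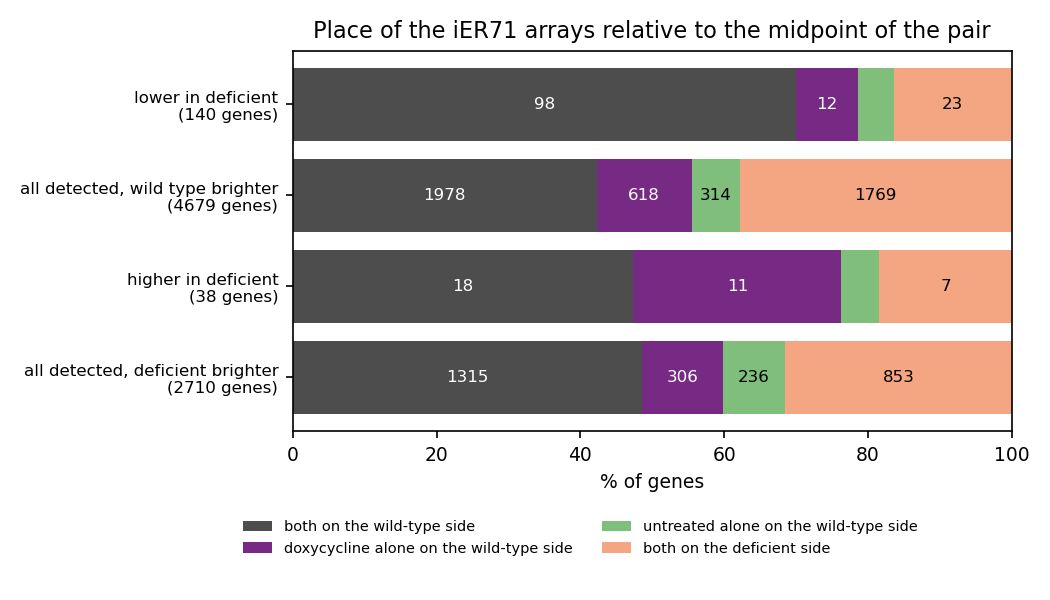
Share of genes (%) by the place of the iER71 arrays relative to the midpoint between the deficient and wild-type arrays, for genes past 2-fold and for all detected genes of the same direction; numbers in the bars are genes. In the lower set 98 of 140 genes had both iER71 arrays on the wild-type side, and in the higher set 18 of 38.

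Of the 38 higher genes, 18 (47.4%) had both iER71 arrays on the wild-type side, close to the 48.5% of all 2710 detected genes brighter in deficient cells. For another 11 (28.9%, against 11.3%) only the doxycycline array was on the wild-type side. The deficient array was the brightest of the 4 for 30 of the 38 (78.9%), a count that the choice of genes favours. Among all 2710 detected genes brighter in deficient cells the share was 57.7%. Myl7 stood out most, at 1.81 above the next array, followed by Dact1 (1.5), Plac8 (1.24), the imprinted growth inhibitor Phlda2 (1.19), the testis poly(A) polymerase gene Papolb (1.13) and the ubiquitin ligase gene Trim36 (1.12). Wild type alone was dim, by more than 1 on the log2 scale, for the histone gene H4c14, the glycosyltransferase gene B3galt1 and the olfactory receptor gene Olfr930. Of the 38 higher symbols, 5 were olfactory receptors or unnamed clones, and near-identical copies make H4c14 uncertain. Papolb, Trim36, H4c14, B3galt1 and Olfr930 were under 2-fold with the offset of 50.

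Heart genes were brighter in deficient cells at a few early markers and near equal elsewhere. Of 15 detected cardiac transcription factors (24 listed), 12 were brighter, 2 dimmer and 1 equal, 2 passed 2-fold, and the median was 0.15. Mesp1, which marks the first cardiac mesoderm, was at 8.33 against 6.97 (2.57-fold). Isl1, of second heart field progenitors, was at 7.63 against 6.49 (2.21-fold), but wild type was its dim array, with 7.55 and 7.38 on the iER71 arrays. Foxf1 (7.26 against 6.68), a lateral mesoderm factor, Tbx20 (8.22 against 7.81) and Hand1 (8.63 against 8.33) were brighter by less than 2-fold. Gata4 (8.65 against 8.47) and Nkx2-5 (6.56 against 6.58) hardly differed, and Tbx5 was not detected. Isl1 was under 2-fold with the offset of 50.

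Contractile genes lay on both sides. Of 20 detected genes (38 listed), 13 were brighter in deficient cells and 6 dimmer, with a median of 0.14. Myl7, the atrial myosin light chain, had the largest difference on the higher side, 8.81 against 6.70 (4.29-fold), and the smooth muscle calponin gene Cnn1 was at 9.09 against 7.48 (3.06-fold). Acta2 went the other way at 7.09 against 8.35, so smooth muscle markers were on both sides of 2-fold. The troponin genes also diverged short of 2-fold, Tnnc1 at 8.72 against 8.17 and Tnnt2 at 7.43 against 8.17. Tagln, another smooth muscle marker, was at 8.17 against 7.41.

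Streak and mesoderm genes lay slightly higher in deficient cells. Of 25 detected genes (35 listed), 17 were brighter and 6 dimmer, 4 passed 2-fold, all higher, and the median was 0.12. Lhx1, a homeobox gene of the streak and its derivatives, was at 8.89 against 6.87 (4.05-fold). Pdgfra, the growth factor receptor of paraxial and cardiac mesoderm, was at 8.64 against 7.31 (2.51-fold), and Fst, encoding the activin antagonist follistatin, at 8.63 against 7.35 (2.43-fold). Mesp1 was the fourth. The streak factors Eomes (9.34 against 8.76) and Mixl1 (10.55 against 10.11) were brighter by less. The untreated iER71 array exceeded the deficient array for Fst (9.01) and Mixl1 (10.88), so neither was brightest in the cells without ER71.

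Wnt modulators were found in both directions. Of 36 detected Wnt genes (53 listed), 2 passed 2-fold on either side, and the median was 0.01. Frzb, a secreted Wnt antagonist, was at 9.97 against 8.0 (3.92-fold), with the untreated iER71 array at 9.91. Dact1, an intracellular modulator, was at 8.35 against 6.69 (3.15-fold). Lower were Lgr5 (6.83 against 8.24) and Rspo3 (8.65 against 9.82), a receptor and a ligand that enhance Wnt signalling. The doxycycline array was also low for both, at 6.84 and 7.48, with the untreated iER71 array at 7.99 and 9.60. Fzd4, a Wnt receptor of vessels, was short of 2-fold at 7.27 against 8.22. The target gene Lef1 was at 8.34 against 7.79, short of 2-fold in the other direction.

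BMP, Nodal and TGF-beta genes had a median of 0.00 over 37 detected members (46 listed), with Fst past 2-fold on the higher side and the co-receptor gene Tgfbr3 (6.29 against 7.29) on the lower. Tgfbr3 was under 2-fold after median centring, quantile normalization or cyclic loess and with the offset of 50. Bmper (9.08 against 8.22), Id1 (7.91 against 7.11) and Bmp5 (9.85 against 9.13) were brighter in deficient cells by less than 2-fold. Bmp4, the inducer of this mesoderm, was at 8.98 on both arrays.

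Other higher genes had no common list. Mnd1, which acts in meiotic recombination, was at 8.40 against 6.99 (2.67-fold), with the doxycycline array as bright at 8.45. Phlda2 was at 10.99 against 9.80 and Plac8 at 8.52 against 7.28. Trim36 was at 7.50 against 6.13, the SNARE regulator gene Stxbp6 at 6.72 against 5.39 and the rhophilin gene Rhpn2 at 7.54 against 6.23, and these 3 were under 2-fold with the offset of 50. The collagen hydroxylase gene P3h2 was at 9.10 against 7.88 and Crabp1, which binds retinoic acid in the cytoplasm, at 10.60 against 9.50. The neuronal gene Dpysl5 was at 8.21 against 7.03 and the polarity gene Mpp5 at 9.05 against 7.96, and neither passed 2-fold with the offset of 50. Socs2, a feedback inhibitor of cytokine signalling, was the gene nearest to the limit, at 10.38 against 9.38. Also higher in deficient cells were Gna14, a G-protein alpha subunit gene (7.52 against 6.45), Pid1 (7.61 against 6.57) and Smarca1, a chromatin remodeller gene (8.22 against 7.15). The carbonic anhydrase gene Car3 was at 6.64 against 5.56, the oocyte kinase gene Mos at 6.48 against 5.44 and the bitter taste receptor gene Tas2r107 at 6.46 against 5.41, each below the detection level in wild type. Socs2 and these 6 genes were under 2-fold with the offset of 50.

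**Figure D5:**
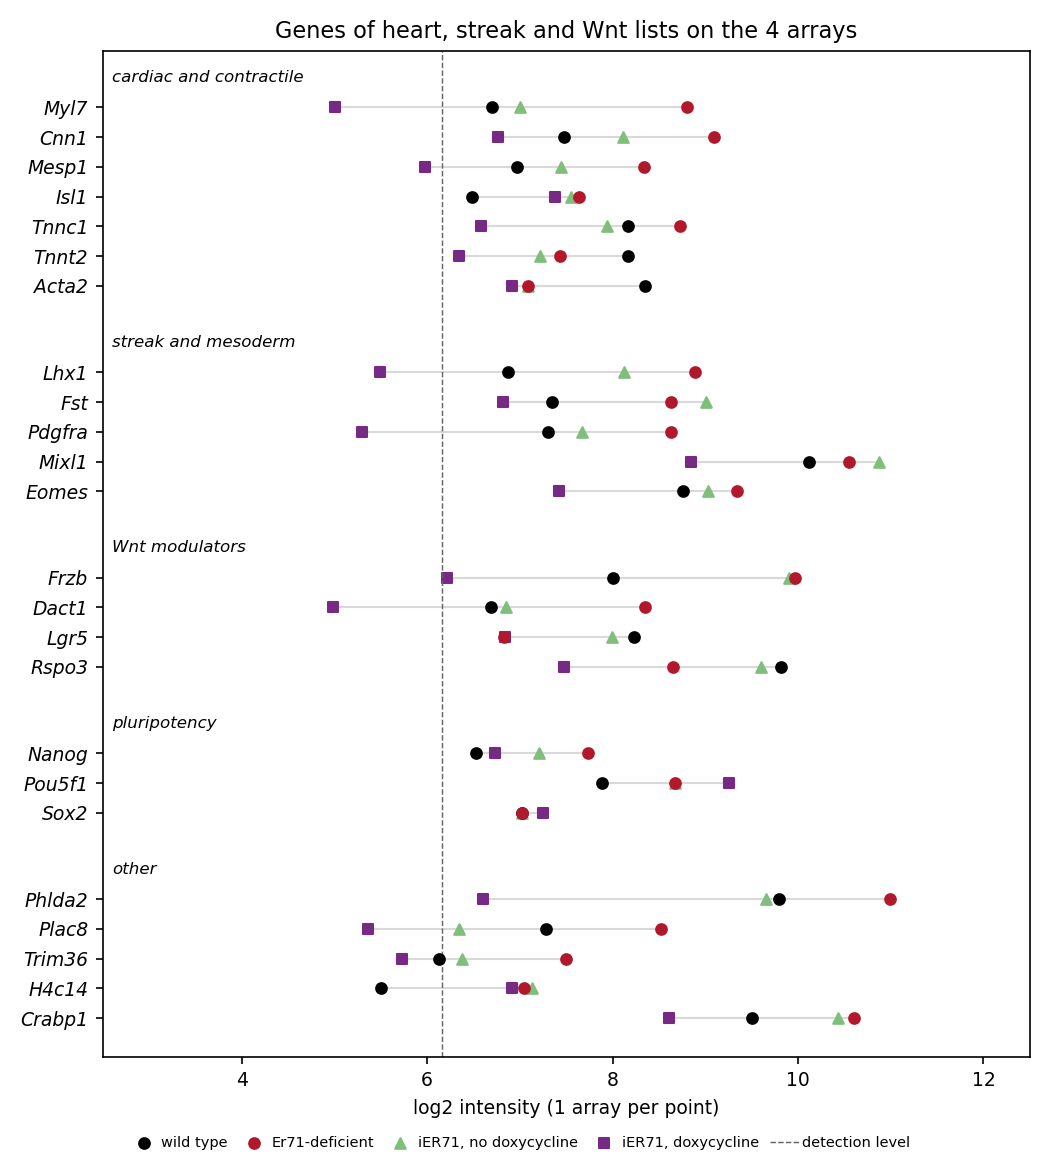
Log2 intensity of 24 genes of the heart, streak, Wnt and pluripotency lists and of other higher genes on the 4 arrays, 1 point for each array, with the detection level dashed. Symbols are as in the plot of vessel and blood genes by array. The deficient array is rightmost for Myl7, Cnn1, Lhx1 and Phlda2, while for Isl1 and H4c14 the wild-type array stands apart on the left.

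Lists of other cell types and of cell state gave small medians. In the pluripotency list 12 of 17 detected genes (32 listed) were brighter in deficient cells, with a median of 0.13. Nanog passed 2-fold, at 7.73 against 6.52, but not with the offset of 50. Pou5f1 was at 8.68 against 7.89 and Sox2 at 7.02 on both arrays. In the endoderm list 3 of 18 detected genes (25 listed) were at least 2-fold lower, namely Sox7, which endothelium shares, the lipid carrier gene Apoe (8.78 against 9.95) and the protease inhibitor gene Spink1 (6.53 against 7.69), and the median was 0.00. Spink1 and Sox7 were under 2-fold with the offset of 50. The neuroectoderm list had a median of 0.03 with none of 9 detected genes past 2-fold, Otx2 coming nearest at 8.15 against 7.24.

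Listed proliferation genes lay between -0.22 and 0.42 over 21 detected members, with Mki67 at 11.29 against 11.19. Outside that list, the thymidine kinase gene Tk1 (7.05 against 8.12) and Pclaf (9.83 against 10.83) were past 2-fold lower, though not with the offset of 50. Immediate-early and stress genes had a median of 0.07 over 23 detected. The growth factor response gene Egr2 was higher (7.92 against 6.89), though under 2-fold with the offset of 50, and Ier3 was lower (6.02 against 7.52). Notch pathway genes had a median of -0.04 and none of 16 past 2-fold, while Dll4 and Rbpj were not detected. The Hox and Cdx list had a median of -0.10 and none of 14 past 2-fold. Hoxd10, which is not on that list, was past 2-fold at 6.35 against 7.70, but not with the offset of 50. In the cadherin list Cdh5 alone of 18 detected genes passed 2-fold. Cdh2, the mesenchymal cadherin, was at 10.09 against 9.49 and Cdh1, the epithelial one, at 7.23 against 6.93. Of 14 detected antioxidant genes, Selenop, which carries selenium, was past 2-fold at 5.18 against 7.57, and the median was -0.19.

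The arrays were also described by markers of what the gate could hold. Of 10 endothelial markers, 7 reached the detection level in wild type and 2 in deficient cells, and their summed intensity was log2 11.61 against 10.26. Among 7 primitive blood markers measured, 6 reached it in wild type and 4 in deficient cells, with sums of 10.33 and 9.28. Cardiac mesoderm markers, 7 of 8 on either array, summed to 10.46 in wild type and 11.02 in deficient cells. The 5 primitive streak markers measured were above the detection level on both arrays, with sums of 10.88 and 11.29. Paraxial markers had 1 of 4 above it on either array, with sums of 8.31 in wild type and 9.15 in deficient cells. ES cell markers had 4 of 6 above it on either array and sums of 9.48 and 9.98. Fibroblast feeder markers had 3 of 7 above it on either array, with sums of 9.04 and 8.88. Those above were Col1a1, Col1a2 and Thy1, whereas Col3a1, Postn, Lum and Dcn were below it. In the longer feeder list 4 of 14 genes were detected, none past 2-fold, with a median of -0.01. Endoderm markers had 1 of 5 above it on either array and neuroectoderm markers 3 of 4, with sums within 0.14 of each other. On the iER71 arrays, without and then with doxycycline, the sums were 11.33 and 12.9 for endothelial and 9.454 and 9.235 for blood markers. They were 10.3 and 9.319 for cardiac, 11.43 and 9.855 for streak, and 9.94 and 10.21 for ES cell markers. Wild type was thus the brightest of the 4 arrays for blood and the dimmest for ES cell markers. The deficient array was the dimmest for endothelial and the brightest for cardiac markers. These sets share genes with the calls above, so the sums are no separate view of the cell mix. Shared were Cdh5, Pecam1, Tek, Cd34 and Egfl7 (endothelial), Hbb-y and Hba-x (blood), and Mesp1, Myl7 and Isl1 (cardiac). Pdgfra (paraxial) and Nanog (ES cell) were shared too, and the endothelial Kdr was the sorting marker. The part of these shifts in the gene differences was not tested.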

How the data were processed

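RNA of 4 arrays was analysed, 1 for each group, in the table of values the authors deposited. Each deposited value is a linear intensity of a probe set. Expression Console (Affymetrix), the RMA method and build mm8 are listed, per the submitters' processing notes, with neither order nor version. RMA usually returns log2 values, but these are linear, so log2 was taken. Median intensities were 71.3 to 72.3 on the 4 arrays. Having so few arrays limits how precise any value is.

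The platform annotation named 1 gene for 14996 of 23332 probe sets; 1019 with several symbols and 7317 without any were kept apart. Of several probe sets of a gene (135 genes) the brightest on average was used. Genes were called at 2-fold with no p-value, and the call was tested on simulated data. Promoters were RefSeq sequences of build GRCm38.p6, read from letters only. Genes named were Etv2 and Kdr, the 40 largest lower and 30 largest higher differences without predicted genes or olfactory receptors, members of 28 gene lists (1 of them not reported here), up to 8 genes for each pattern over the 4 arrays, and up to 4 promoters. Members and lists were chosen with earlier results of these data known. Hoxd10 and Tk1, which are in no list, were named in addition. Alternatives changed the detection filter, an offset, the normalization (limma 3.58.1 for quantile and cyclic loess) and the probe set rule. Python 3.11.15 was used for the rest.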

Additional observations from a re-analysis of the deposited data

Results flagged for a closer look

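Probe sets outside the gene comparison also differed. Of 3387 detected probe sets with no gene symbol, 208 (6.14%) were at least 2-fold higher in Er71-deficient cells and 57 (1.68%) at least 2-fold lower, the reverse of the balance among named genes (38 higher, 140 lower). Those 208 were dim, with a median log2 intensity of 6.76 in deficient cells and 5.29 in wild type, and 168 of them lay below the detection level in wild type. Their medians on the iER71 arrays were 5.993 without and 6.161 with doxycycline. Among 402 detected probe sets with several symbols, 14 were at least 2-fold lower and 4 at least 2-fold higher. All are shown because no comparison above uses their intensities, and whether these lie above background is not known. What these probe sets measure is not given in the sources used here.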

How the results depend on the processing

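The 8 alternatives reversed the direction of none of the 178 genes past 2-fold, nor of Etv2 or Kdr. The count of lower genes was 140 as reported, between 102 and 196 under the other detection filters, normalizations and probe set rule, and 62 with an offset of 50 on the linear scale. The count of higher genes was 38 as reported, 78 with no detection filter, 23 with detection at the 75th percentile of all values, 13 with the offset, and between 36 and 40 otherwise. Lower genes made up 78.7% of calls as reported and between 71.5% and 82.7% under the alternatives. Of the 178 genes past 2-fold, 103 were under 2-fold in at least 1 alternative: all 103 with the offset, which shrinks dim genes by construction, 11 after cyclic loess, 10 after quantile normalization, 4 after median centring and 1 (Acer2) with the mean of all probe sets. The second probe set of Acer2, a ceramidase gene, lay the other way (0.98 against -1.44). The deposited values hold no detection calls, which leaves the background unknown. No paired analysis was possible because each group has 1 array.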
